A study of Mus musculus with 10 samples.

Results

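The collagen chain genes of the mouse heart were compared between ventricles of WT and Trbp-cKO mice. The 41 genes are all those whose symbol in the deposited mRNA table is Col, a type number, the letter a and a chain number, out of 23360 genes in that table. Where a gene had several transcript rows, which was so for 5 of the 41, the row with the highest total count stood for it. Col6a3, Col6a5 and Col26a1 stood in the table under a blank or another symbol. They were known by RefSeq accession only, and they are not among the 41. Col25a1 is a member by the symbol of its other transcript rows, although the row used for it has a blank symbol.

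The mRNA libraries from ventricles at 2 weeks of age made up 2 WT and 2 Trbp-cKO samples, and small RNA libraries from ventricles at postnatal day 2.5 made up 3 WT and 3 Trbp-cKO samples. All mice were C57BL/6. Trbp, encoded by Tarbp2, is a double-stranded RNA binding protein that partners Dicer in miRNA processing. The labels name the mutant group Trbp-cKO and do not say which cells lost the gene, and they do not say that the replicates came from separate animals, so p-values measure the spread between these libraries, which may be technical.

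Collagens are secreted proteins whose chains wind into a helix, and each class builds another kind of structure. Fibrillar chains form the fibrils that give the heart wall tensile strength, and cardiac fibroblasts are their main source. Type IV chains form the sheet of the basement membrane around cardiomyocytes and capillaries. FACIT chains sit on the surface of fibrils, type VIII and X chains form network lattices, type VI chains form beaded filaments, and multiplexins sit at basement membranes. Values below are CPM, the counts of a gene as a share of the library, scaled by TMM library factors and not divided by transcript length, so levels of different genes are not compared. A chain is said to have risen or fallen only where edgeR's quasi-likelihood test gave a Benjamini-Hochberg adjusted p under 0.05 over all 13625 genes tested.

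The mRNA libraries held between 10151216 and 13540469 counts. Tarbp2 was at 12.7 and 11.5 CPM in WT and at 3.87 and 3.89 CPM in Trbp-cKO, a log2 fold change of -1.64 ± 0.17 (SE, edgeR adjusted p = 0.000650). Cardiomyocyte markers summed to between 53369 and 54861 CPM in WT and between 66805 and 69809 CPM in Trbp-cKO, so that the genes of the labelled tissue were present in every library. In these bulk samples fewer cells of a type and less RNA per cell cannot be told apart.

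The summed CPM of the collagen chains was lower in both Trbp-cKO libraries than in either WT library. This sum follows the chains with the most counts and was not tested. The 41 chains summed to 7580 and 7038 CPM in WT and to 5787 and 6557 CPM in Trbp-cKO, a difference of -15.6% between the group means with no overlap of the groups. They made up between 0.568% and 0.767% of all counts in a library. Of the 32 chains with enough counts to test, 5 fell and none rose. Over all tested genes, 4.2% fell and 5.17% rose, or 9.37% in either direction. At an unadjusted edgeR p under 0.05, 10 chains were lower and 1 was higher. The share of all tested genes at that unadjusted level is not given here. These and later unadjusted counts therefore cannot be read as above or below it. DESeq2 called 6 lower, against 2.16% of the genes it tested, and 0 higher. The sign of the log2 fold change was negative for 21 of the 32 chains against 50% of all tested genes, and its median was -0.17 against 0.00 over all tested genes. Without Trbp-cKO replicate 1 the median of the chains was 0.0009, and without Trbp-cKO replicate 2 it was -0.27. Both Trbp-cKO libraries lay below both WT libraries for 14 chains and above them for 6, where all tested genes gave 27.1% and 27.5%.

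All 5 calls were found among the chains with many counts, but negative values were not limited to them. Col20a1, with a mean of 4.24 CPM, had the lowest log2 fold change of the 32 chains, at -0.70. All 17 chains with a mean of at least 20 CPM were tested. The 5 chains that fell are among them, 15 have a negative log2 fold change, and 11 have no overlap, with Trbp-cKO below WT. Among the 7307 genes of all kinds at that level, 4.57% fell and 26.7% lay below without overlap. The median log2 fold change was -0.21 for the 17 chains and 0.02 for those 7307 genes. Of the 24 chains under 20 CPM, 15 were tested. At an unadjusted p under 0.05, 1 of these was lower and 1 higher, and neither edgeR after adjustment nor DESeq2 called any. Their median log2 fold change was 0.30, with 6 negative and 9 positive values.

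**Figure D1:**
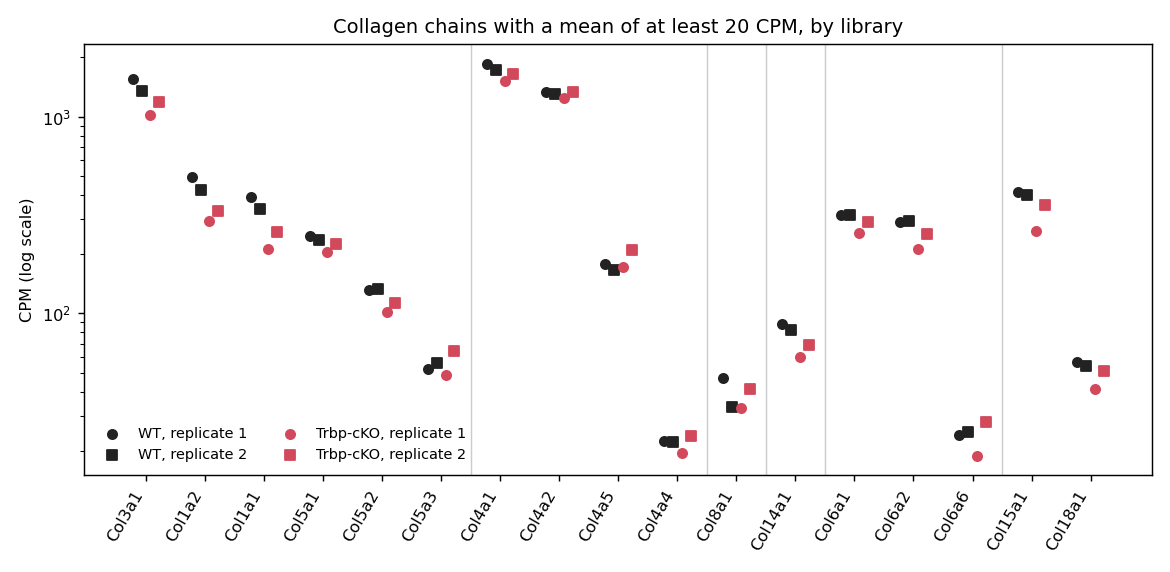
Level of each of the 17 collagen chains with a mean of at least 20 CPM (log axis, CPM, not per length) in the 2 WT (black) and 2 Trbp-cKO (red) libraries, with grey lines between classes. The red points of Col3a1, Col1a2, Col1a1, Col5a2 and Col14a1 lie below both black points, whereas the points of Col4a2, Col4a5 and Col5a3 overlap.

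The fibrillar class held 4 of the 5 chains that fell. Type I collagen, the main fibril of the heart, is built of the products of Col1a1 and Col1a2. Col1a1 (chr11:94936224-94953042, GRCm38) was at 392 and 340 CPM in WT and at 213 and 260 CPM in Trbp-cKO. Its log2 fold change was -0.63 ± 0.11 (SE), with an edgeR adjusted p of 0.0173. Col1a2 (chr6:4505618-4541543) was at 495 and 425 CPM in WT and at 294 and 333 CPM in Trbp-cKO. Col1a2 had a log2 fold change of -0.55 ± 0.10 (SE) and an edgeR adjusted p of 0.00902, the lowest p of the 32 chains. In both genes the lowest WT library lay above the highest Trbp-cKO library. Col3a1 (chr1:45311538-45349706), whose type III collagen forms finer and more elastic fibrils, was at 1553 and 1354 CPM in WT and at 1016 and 1183 CPM in Trbp-cKO. Its log2 fold change was -0.40 ± 0.10 (SE), with an edgeR adjusted p of 0.0370.

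Without WT replicate 1 none of these calls remained, with edgeR adjusted p of 0.124 for Col1a1, 0.121 for Col1a2 and 0.290 for Col3a1. Without WT replicate 2, Col1a1 had an edgeR adjusted p of 0.0533 and Col3a1 one of 0.101. Without Trbp-cKO replicate 1, Col3a1 had one of 0.115. Col1a2 passed the threshold in 3 of the 4 fits that left out a library, and all 4 fits gave a negative log2 fold change for each of the 3 genes. In the authors' deposited table, the ratio of Trbp-cKO over WT was 0.642 for Col1a1, 0.678 for Col1a2 and 0.753 for Col3a1, with q-values of 0.000661, 0.00491 and 0.0936. The other chains called here had higher q-values in the authors' deposited table, 0.132 for Col14a1 and 0.393 for Col5a2.

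Type V collagen starts fibrils and limits their width, and its chains did not all give the same result. Col5a2 (chr1:45374331-45503282), which lies 24624 bases from Col3a1, was at 131.0 and 132.6 CPM in WT and at 101 and 112 CPM in Trbp-cKO. Its log2 fold change was -0.30 ± 0.07 (SE), with an edgeR adjusted p of 0.0299. That call was lost when either WT library or Trbp-cKO replicate 1 was left out, where the edgeR adjusted p lay between 0.0915 and 0.213, and in DESeq2 at an adjusted p of 0.0978. Col5a1, the partner of Col5a2 in most type V molecules, was at 246 and 235 CPM in WT and at 205 and 226 CPM in Trbp-cKO. The groups did not overlap, but its log2 fold change of -0.16 ± 0.07 (SE) had an edgeR adjusted p of 0.227. Col5a3, a chain of a less common type V molecule, was at 52.2 and 55.7 CPM in WT and at 48.7 and 64.4 CPM in Trbp-cKO. Here the groups overlapped, with a log2 fold change of 0.07 ± 0.13 (SE) and an edgeR adjusted p of 0.814.

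The other fibrillar chains had low counts and none of them passed the test. Col27a1, a long fibrillar chain best known from cartilage, had a mean of 10.9 ± 0.42 CPM in WT and of 13.4 ± 0.17 CPM in Trbp-cKO (SD, n = 2 each), a log2 fold change of 0.30. Col11a2 had means of 3.77 ± 0.97 and 5.57 ± 1.31 CPM and a log2 fold change of 0.58, and Col24a1 had means of 0.70 ± 0.24 and 1.26 ± 0.19 CPM and one of 0.87. In these 3 of the 10 tested fibrillar chains both Trbp-cKO libraries lay above both WT libraries. The same held for 27.5% of all tested genes, so that this count says little. Col11a1, the partner of Col11a2 in type XI collagen, had means of 0.95 ± 0.25 and 0.65 ± 0.07 CPM and a log2 fold change of -0.58. Over the 10 tested fibrillar chains the log2 fold changes ran from -0.63 to 0.87 with a median of -0.23.

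Promoter windows of Col1a2 and Col3a1 are shown as the starts of chains that fell, beside the window of Col4a2, a basement-membrane chain that did not pass the test. Each window runs from 250 bases before to 50 bases after the RefSeq start on GRCm38, 5′ to 3′ on the plus strand, and capitals mark CCAAT on either strand and TATAAA. They lie at chr6:4505368-4505667, chr1:45311288-45311587 and chr8:11312555-11312854.
Col1a2: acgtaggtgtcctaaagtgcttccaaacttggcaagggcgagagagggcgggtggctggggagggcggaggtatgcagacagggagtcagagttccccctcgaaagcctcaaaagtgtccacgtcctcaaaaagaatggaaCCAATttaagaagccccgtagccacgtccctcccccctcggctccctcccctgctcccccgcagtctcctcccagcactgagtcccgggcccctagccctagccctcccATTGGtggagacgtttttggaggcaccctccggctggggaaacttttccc
Col3a1: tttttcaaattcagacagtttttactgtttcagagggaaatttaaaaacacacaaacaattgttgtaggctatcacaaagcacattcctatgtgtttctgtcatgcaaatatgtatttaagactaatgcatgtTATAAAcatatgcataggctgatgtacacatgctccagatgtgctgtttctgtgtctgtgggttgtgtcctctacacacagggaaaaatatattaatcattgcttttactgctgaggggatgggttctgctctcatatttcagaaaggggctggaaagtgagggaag
Col4a2: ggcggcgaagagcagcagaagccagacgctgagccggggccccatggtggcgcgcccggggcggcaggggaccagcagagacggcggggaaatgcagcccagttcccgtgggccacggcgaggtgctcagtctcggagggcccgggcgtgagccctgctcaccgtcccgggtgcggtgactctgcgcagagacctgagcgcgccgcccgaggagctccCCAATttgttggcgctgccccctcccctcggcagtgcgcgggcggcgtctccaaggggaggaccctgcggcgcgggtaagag
The Col1a2 window holds CCAAT 2 times, once on each strand, GGGCGG 2 times and no TATAAA. The Col3a1 window holds TATAAA once and neither CCAAT nor GGGCGG, whereas the Col4a2 window holds CCAAT once and GGGCGG 3 times. Among the 29 windows of tested chains, CCAAT stood in 34.5%, GGGCGG in 69% and TATAAA in 10.3%, searched on both strands, against 37.4%, 35.7% and 13.6% of all 32851 windows. Such a match is a description of the letters and was not tested against the expression values. Windows were not used for Col12a1, Col14a1, Col1a1, Col22a1, Col2a1, Col4a3, Col5a2 and Col9a3.

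None of the 6 basement-membrane chains passed the test in edgeR or in DESeq2, where 9.37% of all genes did in edgeR, so that the count says little for so few chains. At an unadjusted p under 0.05, 1 was lower and 1 was higher. Their log2 fold changes ran from -0.18 to 0.38 with a median of 0.05, and the median ran from -0.057 to 0.19 when 1 library was left out. Col4a1 and Col4a2 encode the chains of the common type IV molecule found in nearly every basement membrane. Col4a1 was at 1861 and 1733 CPM in WT and at 1523 and 1645 CPM in Trbp-cKO. The groups did not overlap, and the log2 fold change of -0.18 ± 0.07 (SE) had an edgeR adjusted p of 0.157. Without Trbp-cKO replicate 2 it was -0.24, with an edgeR adjusted p of 0.0275. Col4a2 was at 1339 and 1298 CPM in WT and at 1244 and 1327 CPM in Trbp-cKO. One Trbp-cKO library lay within the range of WT, and the log2 fold change was -0.04 ± 0.07 (SE, edgeR adjusted p = 0.7999).

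Type IV genes lie in head-to-head pairs, of which Col4a1 and Col4a2 overlap by 85 bases on opposite strands (chr8:11198423-11312889 and chr8:11312805-11449287), and their promoter windows share 78 bases. Whether the counting used strand is not given in the sources used here, so reads in the overlap may belong to either gene. Within a library, the ratio of Col4a1 to Col4a2 counts was 1.39 and 1.34 in WT and 1.22 and 1.24 in Trbp-cKO. The paired genes thus had a lower ratio in both Trbp-cKO libraries. Between 2 groups of 2 libraries an exact two-sided permutation test cannot give a p below 0.333, so ratios and sums are given as values with no test.

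Col4a3, Col4a4 and Col4a5 build a type IV molecule best known from kidney and lung, and Col4a5 also joins Col4a6. Col4a5 was at 179 and 167 CPM in WT and at 171 and 210 CPM in Trbp-cKO, a log2 fold change of 0.14 ± 0.10 (SE, edgeR adjusted p = 0.448). Only Trbp-cKO replicate 2 lay above WT. Without Trbp-cKO replicate 1 the value was 0.28 with an edgeR adjusted p of 0.0458, and without Trbp-cKO replicate 2 it was -0.01. Col4a4 was at 22.3 CPM in both WT libraries and at 19.6 and 23.8 CPM in Trbp-cKO, a log2 fold change of -0.04 ± 0.12 (SE, edgeR adjusted p = 0.893). Col4a3 had means of 10.97 ± 0.38 and 14.3 ± 0.50 CPM (SD, n = 2 each) and a log2 fold change of 0.38 ± 0.14 (SE) with an edgeR adjusted p of 0.141. Its Trbp-cKO libraries both lay above WT, which was not so for its neighbour Col4a4. Col4a6 had means of 2.52 ± 0.27 and 3.22 ± 1.05 CPM and a log2 fold change of 0.35.

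**Figure D2:**
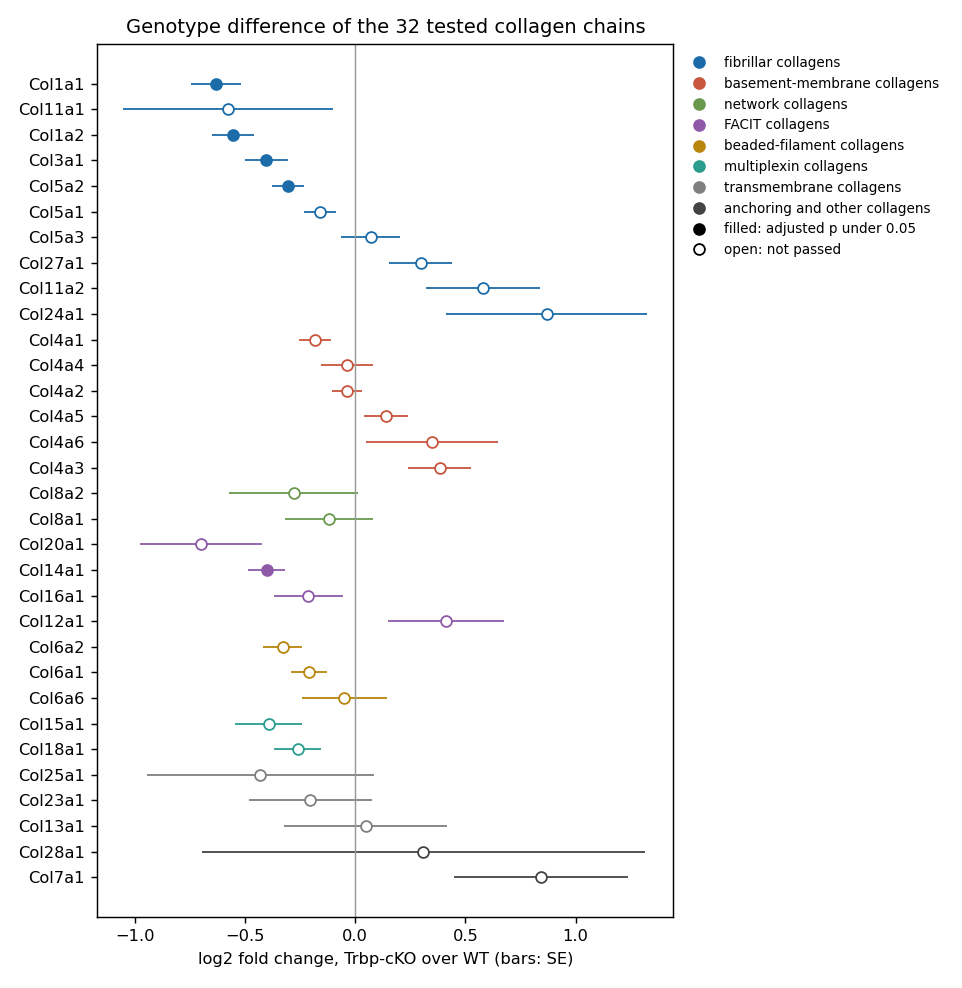
Log2 fold change of Trbp-cKO over WT (x axis) for the 32 tested collagen chains, grouped by class and coloured by it, with bars of 1 SE from edgeR and filled points where the adjusted p is under 0.05. The 5 filled points, 4 fibrillar and 1 FACIT, lie between -0.63 and -0.30, and the 6 basement-membrane points lie between -0.18 and 0.38.

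Among FACIT chains, Col14a1 fell. Its type XIV collagen coats fibrils and regulates their growth. Col14a1 (chr15:55307644-55520803) was at 88.3 and 82.7 CPM in WT and at 60.1 and 69.4 CPM in Trbp-cKO. The groups did not overlap, and the log2 fold change was -0.40 ± 0.08 (SE, edgeR adjusted p = 0.0180). The edgeR adjusted p was 0.178 without WT replicate 1 and 0.101 without WT replicate 2, and leaving out Trbp-cKO replicate 1 gave 0.0626. Col16a1 had means of 19.2 ± 0.81 and 16.5 ± 3.56 CPM and a log2 fold change of -0.21, and its groups overlapped. Col20a1 had means of 5.24 ± 0.69 and 3.25 ± 1.21 CPM and a log2 fold change of -0.70, the lowest of the 32 chains, with an edgeR adjusted p of 0.163. Without Trbp-cKO replicate 1 that edgeR adjusted p was 0.0485. Col12a1, whose type XII collagen also coats fibrils, had means of 3.05 ± 0.48 and 4.10 ± 0.97 CPM and a log2 fold change of 0.41 with an edgeR adjusted p of 0.386. The coats of type XII and XIV thus gave values of opposite sign, of which that of Col14a1 passed the test.

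Network chains gave few results. Col8a1, a chain of the lattice under vascular endothelium, was at 46.9 and 33.5 CPM in WT and at 33.1 and 41.3 CPM in Trbp-cKO, a log2 fold change of -0.12 ± 0.20 (SE, edgeR adjusted p = 0.785). The WT libraries differed from each other by more than the group means did. Col8a2 had means of 2.39 ± 0.36 and 1.98 ± 0.05 CPM and a log2 fold change of -0.28, and Col10a1, known from growth plate cartilage, was not tested. No network chain was called by edgeR or DESeq2, and 0 had an unadjusted p under 0.05.

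No beaded-filament or multiplexin chain passed the test in edgeR, 3 had an unadjusted p under 0.05, all lower, and DESeq2 called 2. Col6a2 was at 291 and 293 CPM in WT and at 212 and 253 CPM in Trbp-cKO. Its log2 fold change of -0.33 ± 0.09 (SE) had an edgeR adjusted p of 0.0515, just over the threshold. With total count scaling that edgeR adjusted p was 0.0384, with no filter it was 0.0112, and DESeq2 gave an adjusted p of 0.0398. Without Trbp-cKO replicate 2 the edgeR adjusted p of Col6a2 was 0.00306. Col6a1, its partner in type VI collagen, was at 318 CPM in both WT libraries and at 256 and 293 CPM in Trbp-cKO, a log2 fold change of -0.21 ± 0.08 (SE, edgeR adjusted p = 0.144), and the edgeR adjusted p without Trbp-cKO replicate 2 was 0.0253. The third chain of the classical type VI molecule, Col6a3, which is not among the 41, was at 200 and 180 CPM in WT and at 146 and 184 CPM in Trbp-cKO, a log2 fold change of -0.20 with an edgeR adjusted p of 0.365. Col6a6, which can take the place of Col6a3, was at 23.98 and 24.8 CPM in WT and at 18.9 and 28.2 CPM in Trbp-cKO, a log2 fold change of -0.05 ± 0.19 (SE, edgeR adjusted p = 0.916). The groups overlapped for Col6a3 and Col6a6 and did not overlap for Col6a1 and Col6a2.

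Col15a1, whose multiplexin links basement membranes of muscle and capillaries to the matrix, was at 413 and 398 CPM in WT and at 261 and 357 CPM in Trbp-cKO. The WT libraries lay close together and the Trbp-cKO libraries far apart, and the log2 fold change of -0.39 ± 0.15 (SE) had an edgeR adjusted p of 0.210. DESeq2 gave an adjusted p of 0.0404, and without Trbp-cKO replicate 2 the edgeR adjusted p was 0.000347. Col18a1, the precursor of endostatin, was at 56.7 and 54.2 CPM in WT and at 41.4 and 51.1 CPM in Trbp-cKO, a log2 fold change of -0.26 ± 0.11 (SE, edgeR adjusted p = 0.172). Without Trbp-cKO replicate 2 its edgeR adjusted p was 0.0229.

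The remaining classes were near the lower limit of the test. The transmembrane chains Col23a1, Col13a1 and Col25a1 had log2 fold changes of -0.20, 0.05 and -0.43, and in each the groups overlapped. Col23a1 had means of 3.27 ± 0.38 and 2.86 ± 0.77 CPM, Col13a1 of 1.37 ± 0.12 and 1.403 ± 0.34 CPM, and Col25a1 of 1.16 ± 0.27 and 0.87 ± 0.57 CPM. Col7a1, the anchoring fibril chain of skin, had means of 1.04 ± 0.24 and 1.89 ± 0.60 CPM and a log2 fold change of 0.84 with an edgeR adjusted p of 0.232. Col28a1 had 10 and 19 counts in WT and 5 and 36 counts in Trbp-cKO, so its log2 fold change of 0.31 ± 1.01 (SE) had no firm direction. The 9 chains that were not tested had between 0 and 13 counts in a library and totals of 1 to 28, and the tested chain with the fewest counts, Col11a1, had a total of 40. They are Col2a1, Col6a4, Col9a1, Col9a2, Col9a3, Col10a1, Col17a1, Col19a1 and Col22a1, of which the type II, IX and X chains are known from cartilage. Fitted in edgeR with no filter, none of the 9 passed, and 1 had an unadjusted p under 0.05. That chain was Col22a1, at 13 and 6 counts in WT and 1 and 5 counts in Trbp-cKO, with an edgeR adjusted p of 0.165 in that fit. In the authors' deposited table its ratio was 0.291, with a q-value of 0.105.

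Summed by class, fibrillar and FACIT chains differed more between the group means than basement-membrane and network chains. The fibrillar chains summed to 2886 and 2560 CPM in WT and to 1898 and 2200 CPM in Trbp-cKO, a difference of -24.8% between the means. FACIT chains summed to 118 and 111 CPM in WT and to 83.1 and 97.5 CPM in Trbp-cKO, a difference of -21.4%. By the median log2 fold change the order of these 2 classes was the other way, at -0.31 for the 4 tested FACIT chains and -0.23 for the 10 tested fibrillar chains. Basement-membrane chains summed to 3415 and 3234 CPM in WT and to 2975 and 3224 CPM in Trbp-cKO, a difference of -6.78%. In these 3 classes both Trbp-cKO libraries lay below both WT libraries, although for the basement-membrane chains the gap was narrow. Network chains summed to 49.5 and 35.9 CPM in WT and to 35.1 and 43.5 CPM in Trbp-cKO, a difference of -7.99% with overlap. Beaded-filament chains differed by -16.3% and multiplexin chains by -23.0%, both without overlap. A class sum follows the chains with the most counts, Col3a1 for the fibrillar chains and Col4a1 and Col4a2 for the basement-membrane chains. In WT, Col14a1 had a mean of 85.5 CPM of the 115 CPM of the FACIT chains. Col8a1 had 40.2 CPM of the 42.7 CPM of the network chains, so these 2 sums largely restate 1 chain each. The difference between classes was not tested.

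**Figure D3:**
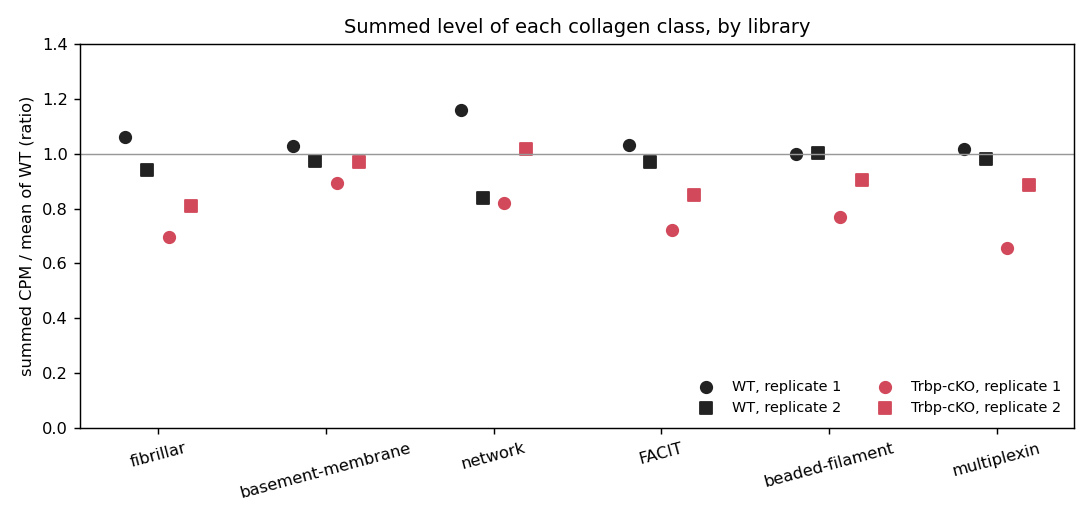
Summed CPM of each of 6 collagen classes in every library (y axis, as a ratio to the mean of the WT libraries, drawn from 0), with WT in black and Trbp-cKO in red. The red points lie below both black points in every class shown except the network chains, and Trbp-cKO replicate 1 is the lower red point in each class.

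Ratios of counts inside a library do not depend on library scaling. Col1a1 counts were 0.293 and 0.262 of Col4a2 counts in WT and 0.171 and 0.196 in Trbp-cKO. Col1a2 counts were 0.370 and 0.328 of Col4a2 counts in WT and 0.236 and 0.251 in Trbp-cKO, and Col3a1 counts were 1.16 and 1.04 of them in WT and 0.817 and 0.891 in Trbp-cKO. All 3 fibrillar chains were thus lower against Col4a2 in each Trbp-cKO library than in either WT library. These chains had fallen and Col4a2 had a log2 fold change of -0.04, so the ratios restate those values and are no separate support. Among the fibrillar chains, the ratio of Col3a1 to Col1a1 was 3.96 and 3.98 in WT and 4.77 and 4.55 in Trbp-cKO. The ratio of Col1a1 to Col1a2 was 0.791 and 0.801 in WT and 0.724 and 0.780 in Trbp-cKO, so that the ratio was lower in both Trbp-cKO libraries. Col5a2 over Col5a1 went from 0.532 and 0.564 in WT to 0.494 and 0.498 in Trbp-cKO, and Col6a1 over Col6a2 from 1.09 and 1.08 to 1.21 and 1.16.

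The libraries of a genotype were not alike in collagen. Trbp-cKO replicate 2 lay above Trbp-cKO replicate 1 in 17 of the 17 chains with a mean of at least 20 CPM, against 47.6% of all 7307 genes at that level. WT replicate 1 lay above WT replicate 2 in 13 of the 17, against 52.5% of those genes. The number of chains that fell also differed with the libraries used. It was 0 without WT replicate 1 and 1 without WT replicate 2, where 0.943% and 1.04% of all tested genes fell. It was 3 without Trbp-cKO replicate 1 and 10 without Trbp-cKO replicate 2, where 3.31% and 3.5% of all tested genes fell. The source of these differences between libraries was not tested.

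**Figure D4:**
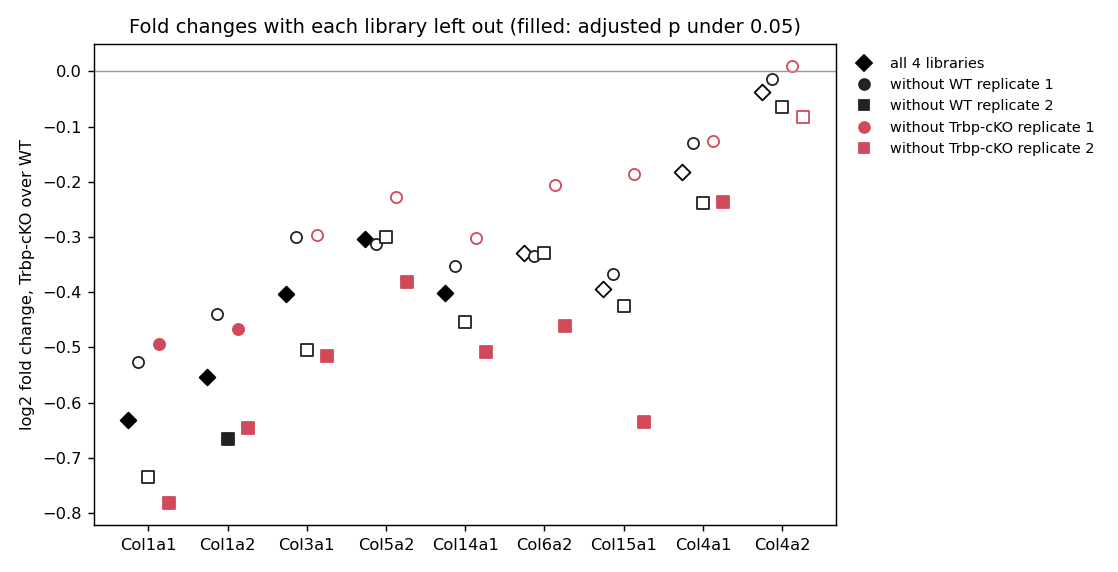
Log2 fold change of Trbp-cKO over WT (y axis) for 9 collagen chains with all 4 libraries (black diamonds) and with each library left out in turn, filled where the edgeR adjusted p is under 0.05. All values of Col1a1, Col1a2, Col3a1, Col5a2, Col14a1, Col6a2, Col15a1 and Col4a1 lie below 0, none is filled without WT replicate 1, and Col4a2 reaches 0.01 without Trbp-cKO replicate 1.

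Genes that make, fold, cut, crosslink, bind and break down collagen were read from 8 lists with 74 genes. Of the 69 that were tested, 1 fell and 4 rose, where 4.2% of all tested genes fell and 5.17% rose. The counts for the lists are thus not read as a result about them. Their median log2 fold change was 0.03. The 17 tested genes of hydroxylation, glycosylation and folding had a median of 0.05. Ppib, a prolyl isomerase of the endoplasmic reticulum, had a log2 fold change of -0.22 with an edgeR adjusted p of 0.0679. Mia3, needed for the export of procollagen from that compartment, had one of 0.20 (edgeR adjusted p = 0.0934). The 8 procollagen cleavage genes had a median of -0.01, with Tll1 at 0.51 (edgeR adjusted p = 0.499) and the enhancer Pcolce at 0.14 (edgeR adjusted p = 0.346). The 5 crosslinking genes all had negative values with a median of -0.16, and the lysyl oxidases Loxl2 and Loxl1 were at -0.16 and -0.17 (edgeR adjusted p = 0.187 and 0.213). In these 3 lists edgeR and DESeq2 called none, and at an unadjusted p under 0.05 there were 2 genes for folding, 0 for cleavage and 1 for crosslinking.

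Of the 8 tested genes of collagen breakdown and its inhibitors 2 rose, both of them inhibitors. The median log2 fold change over the list was 0.15, and at an unadjusted p under 0.05, 3 were higher and 0 lower. The inhibitor genes Timp1 and Timp2 did not pass, at log2 fold changes of 0.12 and 0.06, and their groups overlapped. The breakdown gene Mmp2, at 0.19, did not pass either, although its groups did not overlap. Inhibitors thus did not rise as a kind. Timp3, a matrix-bound inhibitor of metalloproteinases, was at 338 and 341 CPM in WT and at 414 and 436 CPM in Trbp-cKO, a log2 fold change of 0.32 ± 0.07 (SE, edgeR adjusted p = 0.0188). Timp4, the inhibitor most typical of heart, was at 22.0 and 26.7 CPM in WT and at 38.7 and 32.5 CPM in Trbp-cKO, a log2 fold change of 0.55 ± 0.12 (SE, edgeR adjusted p = 0.0272). Both Trbp-cKO libraries lay above both WT libraries for each. Without WT replicate 1 the edgeR adjusted p was 0.199 for Timp3 and 0.212 for Timp4. Without WT replicate 2 it was 0.194 and 0.0720. Timp4 also lost its call in DESeq2, at an adjusted p of 0.0577, and when Trbp-cKO replicate 1 was left out, at an edgeR adjusted p of 0.0897.

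Of 8 tested genes of proteins that bind fibrils, Bgn fell and Thbs2 rose, with a median log2 fold change of -0.03. Over all tested genes 4.2% fell and 5.17% rose, so 1 call each way is not read as a result about the list. At an unadjusted p under 0.05, 3 were lower and 2 higher. Fmod, with a mean of only 2.20 CPM, had the lowest value, -1.06 (edgeR adjusted p = 0.0889). Its groups did not overlap. Bgn, which encodes the proteoglycan biglycan, was at 271 CPM in both WT libraries and at 200 and 225 CPM in Trbp-cKO, a log2 fold change of -0.35 ± 0.08 (SE, edgeR adjusted p = 0.0203). Thbs2, a matricellular glycoprotein needed for normal fibril shape, was at 73.4 and 75.0 CPM in WT and at 99.97 and 95.3 CPM in Trbp-cKO, a log2 fold change of 0.40 ± 0.07 (SE, edgeR adjusted p = 0.00726). Without WT replicate 1 the edgeR adjusted p was 0.177 for Bgn and 0.104 for Thbs2, and without WT replicate 2 it was 0.178 and 0.0933.

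Among the 6 TGF-beta ligands and receptors, a family known to induce collagen transcription, Tgfbr3 rose and the median was 0.10. Of the 6, 1 was lower and 2 were higher at an unadjusted p under 0.05, with 2 negative and 4 positive log2 fold changes. The lower one, the ligand Tgfb2, was at 19.1 and 20.1 CPM in WT and at 14.2 and 14.9 CPM in Trbp-cKO, without overlap. For Tgfb2 the log2 fold change of -0.43 ± 0.12 (SE) had an edgeR adjusted p of 0.0606. Tgfbr3, the co-receptor betaglycan, was at 86.0 and 83.2 CPM in WT and at 107 and 115 CPM in Trbp-cKO, a log2 fold change of 0.39 ± 0.07 (SE, edgeR adjusted p = 0.00849), and the edgeR adjusted p was 0.0960 without WT replicate 1 and 0.132 without WT replicate 2. None of the 8 tested collagen receptors passed in edgeR or DESeq2, 2 had an unadjusted p under 0.05, and the median was 0.00. Itga10 and Itga1, integrin chains that bind collagen, had log2 fold changes of 0.68 and 0.22 (edgeR adjusted p = 0.0897 and 0.0963), and the platelet receptor gene Gp6 had 0 counts in every library. None of the 9 laminin and other basement-membrane partners passed in edgeR, 1 had an unadjusted p under 0.05, and the median was 0.06. That gene, the laminin chain Lama5, was at 148 and 149 CPM in WT and at 217 and 173 CPM in Trbp-cKO (log2 fold change 0.39 with an edgeR adjusted p of 0.0674), and DESeq2 called it at an adjusted p of 0.0244. Nid2 had a log2 fold change of -0.22 with an edgeR adjusted p of 0.238.

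**Figure D5:**
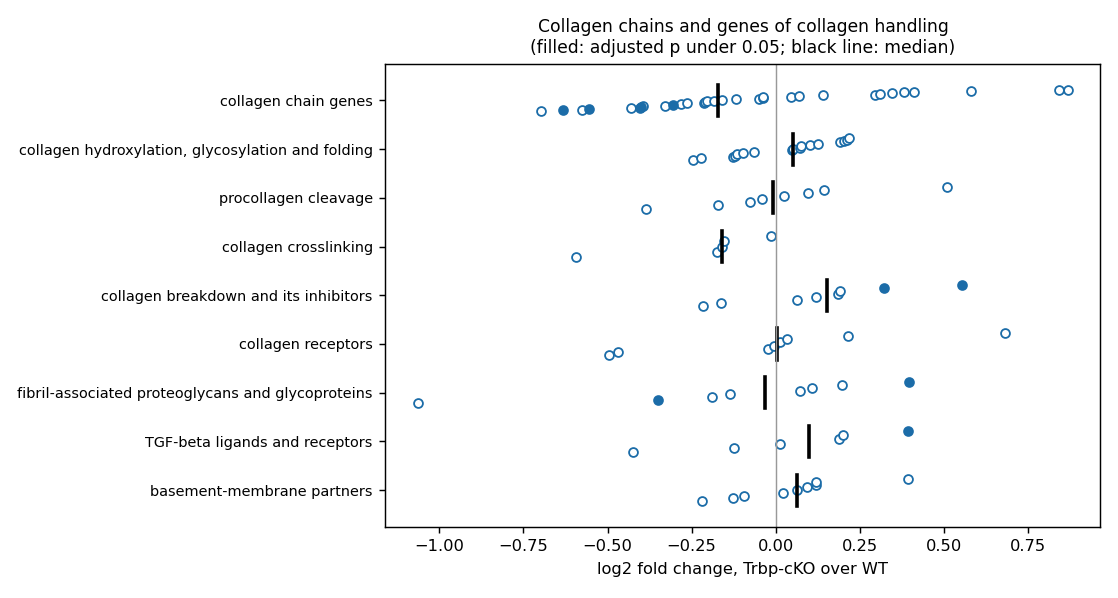
Log2 fold change of Trbp-cKO over WT (x axis) for the tested collagen chains and for the tested genes of each of 8 lists of collagen handling, 1 point per gene, filled where the edgeR adjusted p is under 0.05, with a black line at the median. The median is -0.17 for the chains and between -0.16 and 0.15 for the lists, and the filled points of the lists are Timp3, Timp4, Bgn, Thbs2 and Tgfbr3.

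Markers of the cells that make collagen did not move as 1 group. Of 10 fibroblast markers 3 fell and 2 rose, where 4.2% of all tested genes fell and 5.17% rose. The median of the 10 markers was -0.02, and none of them was at 0 counts. Their sum was 1323 to 1410 CPM in WT and 1635 to 1716 CPM in Trbp-cKO, but without Gsn the other 9 markers summed to 763 to 781 CPM in WT and 709 to 770.0 CPM in Trbp-cKO, with overlap. Thy1 (log2 fold change of -0.52, edgeR adjusted p = 0.0127) and Meox1 (-0.55, edgeR adjusted p = 0.00525) fell, whereas Gsn (0.66, edgeR adjusted p = 0.00272) and Fbln1 (0.54, edgeR adjusted p = 0.0157) rose, and the third marker that fell was Mfap4 (-0.57, edgeR adjusted p = 0.0307). Without WT replicate 1 none of the first 4 passed, with edgeR adjusted p between 0.0633 and 0.106. Leaving out WT replicate 2 gave edgeR adjusted p of 0.0681 for Meox1 and 0.139 for Thy1, and leaving out Trbp-cKO replicate 2 gave 0.0588 for Gsn and 0.0629 for Fbln1. Thy1 also missed the threshold when Trbp-cKO replicate 1 was left out (edgeR adjusted p = 0.0507) and in DESeq2 (adjusted p = 0.0553). Pdgfra, which marks resident cardiac fibroblasts, had a log2 fold change of 0.09 with an edgeR adjusted p of 0.469, and Tcf21 and Dpt had values of -0.05 and 0.00. Per Pdgfra count, Col1a1 had 3.68 and 3.35 counts in WT and 1.91 and 2.37 in Trbp-cKO, and Col3a1 had 14.6 and 13.3 in WT and 9.13 and 10.8 in Trbp-cKO. Against Thy1, a marker that fell, the groups overlapped, with 11.01 and 9.05 Col1a1 counts per Thy1 count in WT and 9.04 and 9.47 in Trbp-cKO. Col3a1 had 43.6 and 36.0 counts per Thy1 count in WT and 43.2 and 43.1 in Trbp-cKO. Both chains were thus lower in Trbp-cKO against Pdgfra and not against Thy1, and these markers were chosen after their values were seen.

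Of 9 endothelial markers Tek rose (log2 fold change of 0.29, edgeR adjusted p = 0.0276), where 5.17% of all tested genes rose. The call of Tek was absent in DESeq2 (adjusted p = 0.109). When WT replicate 1, WT replicate 2 or Trbp-cKO replicate 1 was left out, the edgeR adjusted p of Tek was 0.212, 0.214 and 0.0798. The median over the list was 0.08, and the sum was 1762 to 1763 CPM in WT and 1836 to 1863 CPM in Trbp-cKO. Per Pecam1 count, Col4a1 had 5.98 and 5.72 counts in WT and 5.01 and 5.35 in Trbp-cKO. The 9 smooth muscle and pericyte markers had a median of 0.05 and sums of 2412 to 2736 CPM in WT and 2213 to 2971 CPM in Trbp-cKO, with Abcc9 at 0.20 and Cspg4 at 0.25. The 8 macrophage markers had a median of -0.02 and sums of 283 to 316 CPM and 294 to 308 CPM, with Cd163 at 0.38 and Cd68 at -0.35. The 3 tested valve markers had a median of -0.10, with Sox9 at 0.54 and Acan at -0.39, and sums of 7.85 to 9.80 CPM and 9.68 to 12.8 CPM. The 4 tested epicardial markers had a median of -0.98, with Lrrn4 at -1.96 and Msln at -1.04, and sums of 20.2 to 26.3 CPM and 18.6 to 19.0 CPM. In these last 4 lists edgeR and DESeq2 called none, and at an unadjusted p under 0.05 there were 2, 1, 1 and 1 genes.

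Proliferation and cardiomyocyte markers moved with the genotype beside the collagens. All 5 proliferation markers fell, where 4.2% of all tested genes fell. The 5 markers had a median of -1.94 and sums of 83.2 to 91.1 CPM in WT and 21.7 to 23.6 CPM in Trbp-cKO. Mki67 had a log2 fold change of -1.91, Top2a of -1.94, Cdk1 of -2.20 and Birc5 of -1.68. Of 5 cardiomyocyte markers 4 rose and Actn2 fell, where 5.17% of all tested genes rose and 4.2% fell. The median of these 5 markers was 0.32, and DESeq2 called 3 higher. Ttn missed the threshold in DESeq2 (adjusted p = 0.0564) and in edgeR with total count scaling (adjusted p = 0.0814). Myh6 had a log2 fold change of 0.39, Tnnt2 of 0.39, Ryr2 of 0.32 and Ttn of 0.23. None of these 4 passed when either WT library was left out, with edgeR adjusted p between 0.109 and 0.404, and Birc5 then had one of 0.0718 without WT replicate 2. Every CPM value is a share of its library, and the part of these shifts in the lower collagen values was not tested.

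The miR-29 family is known to target mRNAs of many collagen chains in heart, and miR-133a has been described to target Col1a1 there. The mature miR-29 sequences, shown because they share the seed that pairs with collagen mRNAs, are given below from RefSeq (GRCm38) with the seed, bases 2 to 8, in capitals.
mmu-miR-29a-3p: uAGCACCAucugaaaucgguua
mmu-miR-29b-3p: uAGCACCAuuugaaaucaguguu
mmu-miR-29c-3p: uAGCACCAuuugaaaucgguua
The 3 mature sequences have 1 seed in common. The small RNA libraries, which held between 2201143 and 3885375 counts, came from another age than the mRNA, so that values are given side by side only.

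Of 401 arms tested, 16.7% passed the threshold in edgeR, and none of the 4 tested arms of these families did. At an unadjusted p under 0.05 there was 1, and DESeq2 called 0. miR-29a-3p was at 119, 114 and 121 CPM in WT and at 98.8, 127 and 111 CPM in Trbp-cKO, a log2 fold change of -0.08 ± 0.14 (SE, edgeR adjusted p = 0.828). miR-29c-3p was at 42.4, 66.5 and 65.6 CPM in WT and at 41.2, 56.2 and 58.5 CPM in Trbp-cKO, a log2 fold change of -0.17 ± 0.20 (SE, edgeR adjusted p = 0.686). The groups overlapped for both. miR-29c-5p, the other strand of that hairpin, had means of 4.13 ± 1.63 and 5.47 ± 1.95 CPM (SD, n = 3 each) and a log2 fold change of 0.39 ± 0.41 (SE). The 3p arm of the miR-133a-1 hairpin was listed at 0 counts, so only its other strand, miR-133a-1-5p, was tested. Values of the 5p arm are not read as those of the 3p arm. miR-133a-1-5p was at 14.4, 22.8 and 21.2 CPM in WT and at 10.2, 13.7 and 12.5 CPM in Trbp-cKO. Its 3 Trbp-cKO libraries lay below all WT libraries, and the log2 fold change of -0.69 ± 0.24 (SE) had an edgeR adjusted p of 0.0839. Without WT replicate 1 it was -0.85 with an edgeR adjusted p of 0.00659. The 3p arms of miR-29b, which 2 hairpins encode, and of miR-133a, likewise with 2 hairpins, were listed at 0 or 1 count in every library, and how the counting treated reads that match several hairpins is not given in the sources used here, so nothing is said of their level.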

How the data were processed

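The files deposited by the authors hold raw counts, for mRNA by RefSeq transcript and for small RNA by hairpin arm, as whole numbers with unequal totals show. Per the file headers, the deposited mRNA table adds each transcript's ratio of Trbp-cKO over WT, its p-value and its q-value, which entered no test. The submitters' processing notes list SAMtools 0.1.16, Bowtie 0.12.9, cutadapt 0.9.5, CASAVA 1.8.2, edgeR and mm10 without saying what each did. Not given in the sources used here are the annotation release, strand use and how reads with several matches were counted.

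Rows were named by RefSeq accession. Of 30635 transcript rows, 110 without a name, with 0.117% to 0.14% of a library, were left out, and the row with the highest total count stood for each gene. Groups and replicate numbers came from sample titles. Counts were filtered with filterByExpr, scaled by TMM and tested with edgeR 4.0.16 (glmQLFit with robust estimation, glmQLFTest; R 4.3.3, limma 3.58.1) without covariates, with Benjamini-Hochberg adjustment over all genes or arms tested. The fit was tested on simulated data. Between libraries of a group, the common coefficient of biological variation came to 0.103 (mRNA) and 0.158 (small RNA). Alternatives were DESeq2 1.42.0, other scalings, filters and transcript choices, a replicate block and leaving out each library.

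Named in full were members that passed or had a mean of at least 20 CPM, then up to 4 per class, and for other lists up to 4 members that passed with the smallest p or 2 where none did. Gp6, Mfap4, Actn2, Pdgfra, Tcf21, Dpt, Col6a3, Mmp2, Timp1, Timp2, Fmod and Tgfb2 were named after their values were seen. Of 9 marker lists, 1 is not reported here. The members and lists were chosen with earlier results of these data known. Library sizes limit the precision of scarce chains, and CPM is not per length.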

Additional observations from a re-analysis of the deposited data

How the results depend on the processing

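Over 12 alternatives, the number of genes that fell was 572 and became 307 with DESeq2, and it ran from 131 to 487 when 1 library was left out. The number that rose was 705, became 433 with DESeq2 and ran from 144 to 684. For collagen chains, 5 fell, with a range of 0 to 10 when 1 library was left out, and 0 rose, with a range of 0 to 1, where the 1 was Col4a5 without Trbp-cKO replicate 1. With the replicate number as a block, 2 chains fell. The block lost Col1a1, Col3a1 and Col5a2 at edgeR adjusted p of 0.0604, 0.0968 and 0.0520, and the cardiomyocyte markers Ryr2, Tnnt2 and Ttn at 0.0504, 0.0678 and 0.151, Timp4 at 0.0772 and Tek at 0.0578. Deviations from the group mean correlated at 0.169 for same-numbered mRNA libraries and at 0.114, 0.0958 and 0.0445 for same-numbered small RNA libraries. Differently numbered small RNA libraries correlated between -0.0906 and 0.0353. With 2 mRNA libraries in a group the deviations mirror each other. The -0.169 of differently numbered mRNA libraries is thus the same value with its sign turned and no separate comparison. These values do not settle whether the numbers pair the samples. The labels state no pairing, so the main fit used none. Summing over transcript rows gave Col3a1 an edgeR adjusted p of 0.0539. In the collagen handling lists, the 1 gene that fell became 3 with total count scaling and 3 with no filter, with a range of 0 to 4 when 1 library was left out, and the 4 that rose ran from 0 to 7. The median of network chains was -0.20 and ran from -0.38 to 0.021, the latter without WT replicate 1. miR-29a-3p had a log2 fold change of -0.18 to 0.011 and miR-133a-1-5p one of -0.85 to -0.56 when 1 library was left out. The sign of uncalled chains turned when 1 library was left out, with ranges of -1.66 to 1.10 for Col28a1, -0.083 to 0.0099 for Col4a2, -0.011 to 0.28 for Col4a5, -0.19 to 0.10 for Col4a4, -0.031 to 0.64 for Col4a6, -0.37 to 0.21 for Col6a6, -0.14 to 0.26 for Col5a3, -0.34 to 0.15 for Col8a1, -0.50 to 0.051 for Col23a1, -0.22 to 0.27 for Col13a1 and -1.32 to 0.11 for Col25a1. Col6a6 was also at 0.11 with the first transcript row, and the marker Acan ran from -0.94 to 0.74. The cause was not tested. With 1 library left in a group, its spread is assumed to be that of the other group.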
